A study of Mus musculus with 2 samples.

Results

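The RNA-binding proteins that regulate splicing were taken as all genes whose symbol begins with Srsf, Hnrnp, Mbnl, Celf, Rbfox or Ptbp, or with Rbm followed by a digit, together with Qk. Pseudogene symbols containing -ps were left out. The rule used names and no measured value, and it gave 88 of the 55536 genes in the gene table. The SR proteins (Srsf) gave 11 genes, the heterogeneous nuclear ribonucleoproteins (Hnrnp) 20, muscleblind (Mbnl) 3, Celf 6, Rbfox 3, Ptbp 3, Qk 1 and the numbered RNA-binding motif genes (Rbm) 41. Of these, 86 were annotated as protein-coding, and Rbm3os and Rbm46os as antisense RNAs. The study sequenced total RNA, depleted of ribosomal RNA and carrying ERCC spike-in RNAs, from heart tissue of 2 female B6CASTF1/J mice aged 2 months. Each library took 300 ng of RNA. This strain is the first-generation hybrid of C57BL/6J and CAST/EiJ, while the annotation describes C57BL/6J. Both animals carried the same genotype and neither was treated, so the series holds 1 group with 2 replicates and no contrast between conditions.

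SR proteins bind exonic enhancers through RNA recognition motifs and recruit the splicing machinery through their arginine- and serine-rich tails. Many hnRNPs act the other way and keep splice sites out of use. The muscleblind, Celf, Rbfox, Ptbp and Quaking proteins set tissue-specific exon choices, and in heart muscle Rbm20 and Rbm24 act on transcripts of the contractile apparatus, with titin the best known target of Rbm20. Several of these genes are known to control their own level by splicing in a "poison" exon with a premature stop codon, which exposes the transcript to nonsense-mediated decay.

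The libraries held 41862417 and 41790009 gene-assigned reads in animals 1 and 2. The labelled tissue was checked with marker lists: the 6 cardiomyocyte genes summed to 16471 and 18470 TPM (a transcript abundance: reads per base of transcript, scaled to the same total in each library), and all 6 exceeded 10 TPM in both animals. The 5 neuronal markers summed to 2.87 and 5.01 TPM and the 5 Schwann cell markers to 3.05 and 3.65 TPM. Erythroid markers (4 genes) were abundant, at 29677 and 34711 TPM. Several lists of other heart cells were higher in animal 2 beyond the median of all genes. Fibroblast markers summed to 242 and 325 TPM (median log2 ratio 0.28 in scaled reads, 4 of 5 beyond counting error), pericyte and smooth muscle markers to 168 and 236 TPM (0.25, 5 of 5), endothelial markers to 158 and 203 TPM (0.17, 4 of 5) and macrophage markers to 52.6 and 70.4 TPM (0.20, 2 of 5). Adipocyte markers stood at 21.3 and 55.2 TPM (5 genes), and 2 of the 4 tested differed by 2-fold or more. The part of these lists in any difference between the animals was not tested. In whole tissue, fewer cells of a type and less RNA per cell cannot be told apart.

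The splicing regulators summed to 2209 TPM in animal 1 and 2614 TPM in animal 2 (mean 2411 ± 287 SD, n = 2), or 0.221% and 0.261% of all TPM. At 10 TPM or more in both animals stood 50 of the 88, where 21.6% of all 22028 protein-coding genes did. At 1 TPM or more stood 73, and 14 averaged below 1 TPM. The hnRNPs supplied 43.6% of the members' TPM, a summed level of 1052 ± 129 TPM (SD, n = 2). The Rbm genes followed at 557 ± 61.3 TPM, then the SR proteins at 264 ± 23.1, Qk alone at 207 ± 26.5, Mbnl at 173 ± 26.7, Rbfox at 66.2 ± 7.53, Celf at 51.2 ± 6.55 and Ptbp at 39.7 ± 6.30 TPM. Gene TPM was higher in animal 2 for 72 members and lower for 13. TPM was shifted upward in animal 2 across genes as a whole, by a median of 0.22 on the log2 scale, so the animals are compared further on by scaled read counts. Over nuclear protein-coding genes alone, with their TPM rescaled to that same total, the members summed to 5758 and 5793 TPM.

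**Figure D1:**
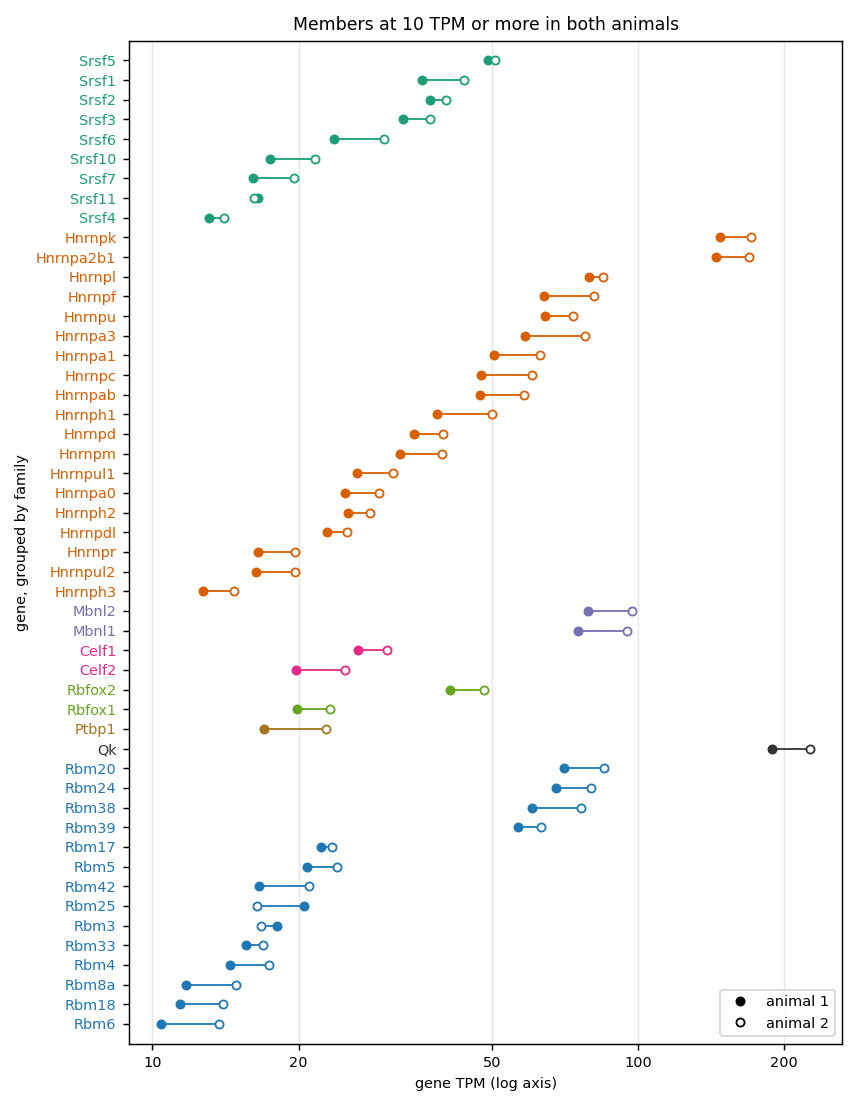
Gene TPM (log axis) of the 50 members at 10 TPM or more in both animals, grouped and coloured by family, with animal 1 as filled and animal 2 as open circles. Qk is highest at 188 and 226 TPM, followed by Hnrnpk and Hnrnpa2b1, while the SR proteins lie between 13.0 and 50.7 TPM.

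Qk, the Quaking protein of the STAR family that binds introns and 3′ ends, was the member at the highest level, with 188 TPM in animal 1 and 226 TPM in animal 2. It ranked 277 among all protein-coding genes by mean TPM. Its gene lies on chr17:10202601-10319854 (minus strand, mm10). In scaled counts, the ratio of animal 2 to animal 1 was 1.01 with a 95% interval of 0.992 to 1.02, counting error only. Annotated coding transcripts held most of its TPM. In the second transcript table Qk-205, a 650-base model, held 38.3% and 39.1% of it. This rested on 1069 and 1189 of the gene's 31225 and 33125 estimated reads. Qk-206 held 18.5% and 18.9% of the TPM on 8120 and 9061 reads. Qk-204, of 8547 bases, held 16.3% and 14.9% on 11523 and 11552 reads. The decay transcript Qk-202 held 14.7% and 14.5%.

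Among the hnRNPs, all 20 genes exceeded 1 TPM in both animals and 9 averaged 50 TPM or more. Hnrnpk, a poly(C)-binding protein, stood at 147 and 170.4 TPM, and Hnrnpa2b1, an RNA-binding protein of the A/B class, at 144 and 169 TPM. These 2 genes differed by less than their spread between the animals. A second tier held Hnrnpl, which binds CA-rich RNA, at 79.2 and 84.5 TPM, Hnrnpf, which binds G-runs, at 64.1 and 81.2 TPM, and the nuclear scaffold protein Hnrnpu at 64.4 and 73.3 TPM. Hnrnpa3 gave 58.6 and 77.9 TPM. Hnrnpa1, an exon-silencing antagonist of SR proteins, gave 50.5 and 62.8 TPM. Hnrnpc, which binds uridine tracts, gave 47.4 and 60.5 TPM, and Hnrnpab 47.2 and 58.1 TPM. From Hnrnpl to Hnrnpab the 2-animal ranges of neighbours overlapped. Hnrnpa1, Hnrnpa3 and several relatives have near-identical pseudogene copies, and reads shared with these depend on the authors' assignment; the deposited assignment spread exceeded 10% of the count in 1 member, Rbm8a2, at 1.03 and 0 reads. In addition, 11 members overlap a gene of 1 TPM or more on the other strand, among them Hnrnpk (Rmi1), Hnrnpu (Cox20), Hnrnpab (Phykpl) and Srsf2 (Mfsd11), and 6 overlap one on the same strand. Whether the counting used strand is not known here, so reads of such pairs may not be told apart.

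The SR proteins were lower than the leading hnRNPs, and none averaged 50 TPM. Srsf5 led at 49.0 and 50.7 TPM. Srsf1, a prototype SR protein, gave 35.9 and 43.8 TPM, and Srsf2, a prototype activator also known as SC35, 37.2 and 40.2 TPM. The values of Srsf1 and Srsf2 overlapped. Srsf3, the smallest SR protein, gave 32.8 and 37.4 TPM, and Srsf6 23.7 and 30.0 TPM. In all, 10 of the 11 SR genes exceeded 1 TPM in both animals.

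Among the regulators of tissue-specific exon choice, the Mbnl, Celf and Rbfox families each held genes above 10 TPM and genes below 1 TPM. The Ptbp genes were all above 1 TPM. Mbnl2 stood at 79.0 and 97.2 TPM and Mbnl1, whose loss of function underlies part of myotonic dystrophy, at 75.2 and 94.7 TPM, with overlapping values, while Mbnl3 gave 0.43 and 0.41 TPM. Celf1, an antagonist of muscleblind at shared exons, gave 26.5 and 30.5 TPM and Celf2 19.8 and 24.95 TPM. Celf4, the third of its family, stood at 0.090 and 0.16 TPM, and Celf3, Celf5 and Celf6 at 0.12 TPM or less in both animals. Rbfox2 gave 41.0 and 48.2 TPM and Rbfox1 19.8 and 23.3 TPM, with no overlap between the 2 genes, while Rbfox3, the neuronal antigen NeuN, gave 0.010 and 0.070 TPM. Of the polypyrimidine tract proteins, Ptbp1 gave 17.0 and 22.8 TPM, Ptbp3 9.89 and 11.9 TPM, and Ptbp2, best known from neurons, 8.30 and 9.47 TPM.

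Among the Rbm genes, 33 of 41 exceeded 1 TPM in both animals and 4 averaged 50 TPM or more. Rbm20, the titin splicing regulator mutated in a form of dilated cardiomyopathy, gave 70.5 and 85.1 TPM. Rbm24, a muscle-enriched splicing factor, gave 67.7 and 80.1 TPM, and its relative Rbm38 gave 60.4 and 76.2 TPM. Rbm39, a U2AF-related splicing factor, gave 56.6 and 63.0 TPM. The values of Rbm20, Rbm24 and Rbm38 overlapped one another, and those of Rbm39 overlapped Rbm38. Rbm17 came next at 22.2 and 23.4 TPM, below both values of each of these 4 genes, and the family's median was 7.65 TPM.

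The lowest member of each family with more than 1 gene was Srsf12 at a mean of 0.020 TPM, Hnrnpll at 8.35, Mbnl3 at 0.42, Celf6 at 0.060, Rbfox3 at 0.040 and Ptbp2 at 8.89 TPM, and Rbm31y and Rbm46os were listed at 0 in both animals. For the genes below 0.1 TPM the reads numbered 5 or fewer per animal, so their levels are close to the limit of detection at this depth.

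Of the 88 members, 76 had 20 or more reads over the 2 animals and could be compared. The comparison used a two-sided exact binomial test of animal 2 against animal 1 on reads scaled by TMM, with Benjamini-Hochberg adjustment over 16133 genes; it compares these 2 libraries and no conditions. None of the 76 differed at an adjusted p of at most 0.05 with a 2-fold difference, against 1.38% of all genes tested. At an unadjusted p under 0.05, 28 of the 76 members differed, against 21.9% of all genes tested, and 0 of them reached 2-fold. Beyond counting error, with no fold minimum, 16 of the 76 differed, against 11.3% of all genes tested. Of the 16, 8 were higher and 8 lower in animal 2. These pass rates depend on read depth, and 46 members had 2000 or more reads over both animals. Among genes with 200 or more reads, 18 of 73 members differed beyond counting error, against 15.1% of all such genes. With libraries scaled by total counts in place of TMM, 30 of the 76 members did, against 20.9% of all genes tested. The members' median ratio was 0.024 on the log2 scale, within a range of -0.32 to 0.75, and -0.0024 was the median over all genes tested. For 70 of the 76 members the ratio lay within 1.2-fold. That count also depends on read depth and was not made over all genes tested.

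Srsf5 had the smallest adjusted p of the members: its 2652 and 2320 reads gave a ratio of 0.829 with a 95% interval of 0.784 to 0.877 (exact binomial test, adjusted p = 2.1e-09). Hnrnpl was lower in animal 2 at 0.895, with an interval of 0.857 to 0.935 (exact test, adjusted p = 1.7e-05). Ptbp1 and Ptbp3 were both higher in animal 2, at 1.16 (interval 1.06 to 1.26) and 1.16 (interval 1.08 to 1.24). Rbm25, a splicing factor, was lower at 0.866. Rbm3, a cold-inducible RNA-binding protein, was the lowest at 0.799, with an interval of 0.719 to 0.888, and Rbm47, an editing cofactor, the highest of the 16 at 1.61, from 63 and 107 reads. Of the heart-linked regulators, Rbfox2 differed beyond counting error at 0.945 (interval 0.908 to 0.983). Its adjusted p, 0.045 in the exact test, was the largest of the 16. Mbnl1 at 1.02, Mbnl2 at 1.04, Rbm20 at 0.974 and Rbm24 at 1.04 did not pass. Mbnl3 had a ratio of 1.68 on 28 and 50 reads, with an interval of 1.05 to 2.79 and no pass after adjustment.

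**Figure D2:**
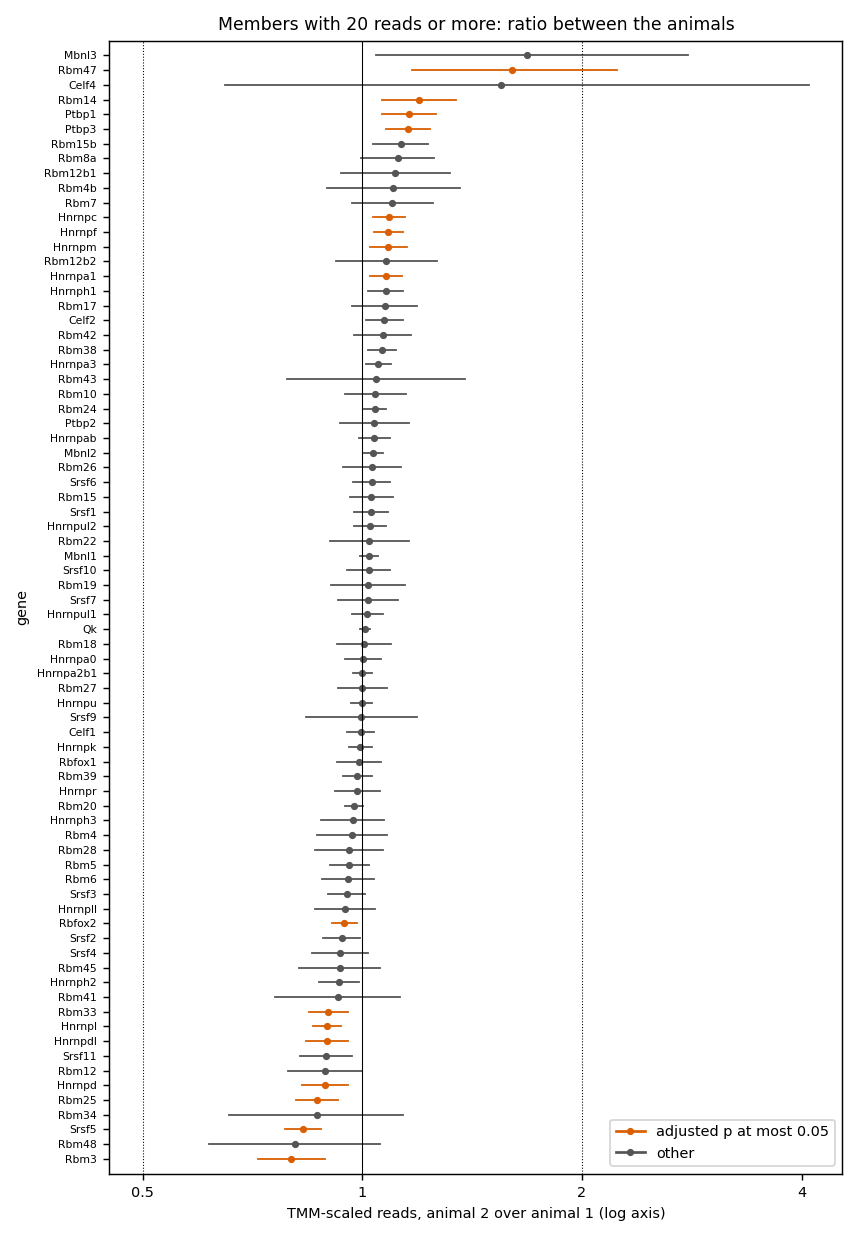
Ratio of TMM-scaled reads, animal 2 over animal 1 (log axis), for the 76 members with 20 or more reads, with 95% exact binomial intervals that cover counting error only. Orange genes passed at an adjusted p of at most 0.05; dotted lines mark 2-fold, which no point reaches.

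For the wider splicing machinery, a fixed list of 75 partners (kinases, snRNP and U2AF components and other RNA-binding regulators) gave 64 genes at 1 TPM or more in both animals and 54 at 10 TPM or more. Its 4 highest genes were the poly(C)-binding protein Pcbp2 at 177 and 194 TPM, the helicase Ddx5 at 130.1 and 156 TPM, the RNA-binding protein Rbpms at 85.9 and 101 TPM and the ubiquitin ligase Prpf19 at 81.3 and 95.2 TPM. The kinases that phosphorylate SR proteins were lower. Clk1 gave 19.4 and 22.2 TPM, Clk2 6.58 and 8.30, Clk3 12.3 and 12.1, and Clk4 12.7 and 14.3. Srpk1 gave 13.5 and 14.3 TPM, Srpk2 14.9 and 15.4, and the muscle kinase Srpk3 10.2 and 13.1. None of the 69 partners tested differed by 2-fold between the animals, against 1.38% of all genes tested. Beyond counting error 10 of the 69 differed, against 11.3% of all genes tested. The members' counts were 0 and 16 of 76.

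The annotation divides a gene's transcripts into protein-coding models and others: nonsense-mediated decay transcripts, retained-intron transcripts that keep an intron, processed transcripts without an open reading frame, and non-stop decay transcripts. The members have 755 annotated transcripts, of which 365 are not protein-coding, and 73 members have at least 1 such transcript. The non-coding share is the percent of a gene's TPM in these transcripts, taken from the second transcript table. It was read for the 64 protein-coding members with a mean of 1 TPM or more in that table and at least 1 non-coding transcript. A short model with few reads weighs heavily in this share because TPM divides by length: the median length was 839 bases for the members' non-coding and 2145 bases for their coding transcripts.

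The median share was 27.8% over the 64 members (29.5% in animal 1 and 29.0% in animal 2), and 14.9% over the 9391 genes that met the same conditions. In both animals 10 members (15.6%) held 50% or more of their TPM in non-coding transcripts, against 10.8% of those genes. Shares of read counts gave lower values, a median of 14.6% against 5.26%. Among genes with 5 or more annotated non-coding transcripts, the median was 38.1% for 25 members and 30.1% for 2674 genes, and 4 members (16%) reached 50%, against 19.2%. Retained-intron transcripts held 11.9% and 10.4% of the members' summed TPM in animals 1 and 2, decay transcripts 9.49% and 9.29%, and processed transcripts 6.14% and 6.10%. Over all nuclear protein-coding genes the means were 6.50%, 2.43% and 7.15%. The first transcript table gave 9.66% of members' TPM in decay transcripts, and 2.06% over all those genes. These sums weigh each gene by its level and carry no test. The 61 partners that met the conditions had a median share of 29.7%, and 9 reached 50%; Clk1 held 79.8% and 78.9%.

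**Figure D3:**
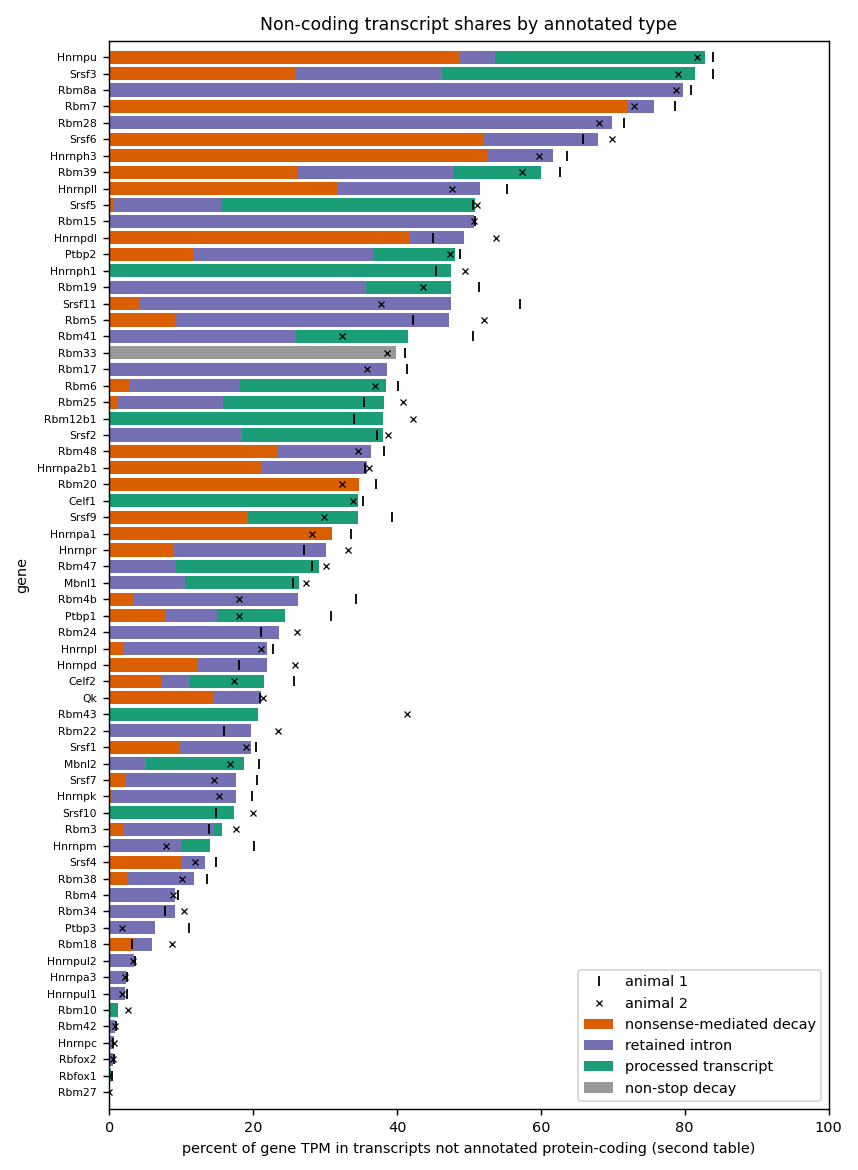
Percent of each gene's TPM in transcripts not annotated as protein-coding (second transcript table) for the 64 members read. Bars give the mean of 2 animals by annotated type, with a dash for animal 1 and a cross for animal 2. Hnrnpu, Srsf3 and Rbm8a top the list with means above 79%, and Rbm42, Hnrnpc, Rbfox2, Rbfox1 and Rbm27 close it below 1%.

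The highest share was that of Hnrnpu, 83.9% and 81.8%. The decay transcript Hnrnpu-206 held 45.4% and 51.4% of the gene's TPM, on 3229 and 3499 estimated reads, and the only coding model, Hnrnpu-201, held 16.1% and 18.2%. Srsf3 followed at 83.9% and 79.1%. Its coding transcript Srsf3-202 held 16.1% and 20.9%, less than the decay transcript Srsf3-201 at 25.7% and 26.2%. In the first table the order turned, with 34.3% and 35.6% for Srsf3-202 and 15.7% and 16.3% for Srsf3-201. Rbm8a, the Y14 subunit of the exon junction complex, gave 80.9% and 78.7%. Of that, the 560-base retained-intron model Rbm8a-204 held 75.1% and 69.1% on 160 and 157 reads, and by reads the share was 27.9%. Rbm7, a subunit of a nuclear exosome targeting complex, gave 78.6% and 72.9%, and Rbm28, a nucleolar protein, 71.5% and 68.1%. Srsf6 gave 65.8% and 69.9%, with 49.8% and 54.0% in the decay transcript Srsf6-201. Hnrnph3 gave 63.6% and 59.8%, and Rbm39, with 18 non-coding transcripts of 25, 62.7% and 57.3%. In these 8 genes both animals lay above 50%. By reads, the shares of Rbm28 and Rbm39 were 28.3% and 30.5%, and in the first table they were 59.0% and 36.1%.

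The lowest shares fell on Rbm27 at 0 in both animals, Rbfox1 at 0.35% and 0, Rbfox2 at 0.59% and 0.45%, and Hnrnpc at 0.53% and 0.70%. Of the heart-linked regulators, Rbm20 gave 37.0% and 32.4%, all of it in the decay transcript Rbm20-201, and Mbnl1 gave 25.5% and 27.3%. Rbm24 gave 21.1% and 26.0%, nearly all of it in Rbm24-203, a 391-base retained-intron model with 65.4 and 93.7 estimated reads; by reads the share was 1.13%. Mbnl2 gave 20.8% and 16.8%, Qk 20.9% and 21.3%, and Celf1 35.3% and 33.9% by TPM but 1.72% by reads. By family, the median share was 36.3% over 10 SR genes, 35.6% over 28 Rbm genes, 26.0% over 16 hnRNP genes and 24.4% over 3 Ptbp genes. In the first table the order differed, with 31.9% for the SR genes, 20.2% for the Rbm genes, 26.4% for the hnRNPs and 31.8% for the Ptbp genes. The animals differed by more than 10 percentage points in 6 of the 64 members. The difference was largest in Rbm43, at 0 and 41.4% in a gene with a mean of 2.27 TPM. Srsf11 stood at 57.1% and 37.8%. Both genes were named after their values were seen. The count of 6 was not made over all genes read.

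Decay transcripts were annotated for 38 members, and 30 such transcripts from 22 genes averaged 1 TPM or more in the second table. In all 30 the stop codon lay more than 50 bases before the last exon junction, the arrangement that marks a stop as premature. Both the decay type and the stop position come from the annotation, so this describes the models and is no result of these data. Of the 30 transcripts, 12 placed the stop in an exon absent from every coding transcript of the gene. Another 8 shared the stop codon of a coding transcript and were spliced further downstream, 7 placed it inside the coding sequence of a coding transcript, and 3 elsewhere in an overlapping exon. The leading 4 transcripts, Hnrnpa2b1-207, Hnrnpu-206, Qk-202 and Rbm20-201, held 50.5% and 52.6% of the members' decay TPM. By family, decay transcripts made up 10.6% and 11.8% of the SR genes' TPM. They made up 10.4% in both animals for the hnRNPs and 9.97% and 9.22% for the Rbm genes. The Mbnl and Rbfox genes have no annotated decay transcript, so none could be measured.

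The sequences below run from the first base of the stop-bearing exon to its premature stop codon, which is in capitals. They are shown because they are the exons that the decay transcripts add. The 6 from Srsf3 to Rbm39-223 are those that no coding transcript uses and whose transcript averaged 1 TPM or more in both quantifications; Rbm39-225 met the same conditions with the exon of Rbm39-222. Srsf6 is added because the only coding transcript that uses its exon, the 515-base Srsf6-202, was at 0 in both animals. They are read 5′ to 3′ on the transcript strand from the GENCODE M21 transcripts, with mm10 positions. Srsf3-201 lies at chr17:29039454-29039487 (plus strand), Srsf9-205 at chr5:115328347-115328428 (plus) and Hnrnpl-213 at chr7:28817335-28817393 (plus). Hnrnpll-203 lies at chr17:80044976-80045022 (minus), Rbm39-222 at chr2:156178881-156178952 (minus), Rbm39-223 at chr2:156174126-156174168 (minus) and Srsf6-201 at chr2:162932815-162932966 (plus).
Srsf3-201: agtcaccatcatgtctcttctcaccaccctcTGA
Srsf9-205: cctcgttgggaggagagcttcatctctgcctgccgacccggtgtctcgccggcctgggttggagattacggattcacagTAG
Hnrnpl-213: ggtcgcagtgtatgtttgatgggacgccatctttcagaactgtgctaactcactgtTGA
Hnrnpll-203: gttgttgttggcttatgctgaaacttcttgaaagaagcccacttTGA
Rbm39-222: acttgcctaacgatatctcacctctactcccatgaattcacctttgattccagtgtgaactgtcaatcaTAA
Rbm39-223: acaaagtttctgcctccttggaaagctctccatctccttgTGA
Srsf6-201: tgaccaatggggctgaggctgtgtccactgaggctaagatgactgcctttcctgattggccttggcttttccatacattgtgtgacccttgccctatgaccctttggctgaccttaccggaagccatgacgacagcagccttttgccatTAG

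In Srsf3-201 the stop falls 34 bases into exon 4 of 7 and 548 bases before the last junction, and the transcript stood at 10.2 and 10.1 TPM. In Srsf6-201 it falls 152 bases into exon 3 of 7, at 14.6 and 17.2 TPM. The Srsf9-205 exon, exon 2 of 6, gave 1.57 and 1.85 TPM, which was 17.9% and 20.8% of Srsf9. Hnrnpl-213 gave 1.41 and 1.97 TPM, only 1.54% and 2.15% of Hnrnpl, whereas Hnrnpll-203 gave 3.44 and 3.09 TPM, 33.0% and 30.3% of the paralogous Hnrnpll. Rbm39-222 gave 6.63 and 5.25 TPM on 86.7 and 69.5 reads, and Rbm39-223 gave 9.52 and 5.85 TPM. Both were lower in the first table, at 1.91 and 1.62 TPM for Rbm39-222 and 0.47 and 1.59 TPM for Rbm39-223. In the first table these transcripts held 45.4% and 51.7% of Srsf6, 15.7% and 16.3% of Srsf3, 15.4% and 23.8% of Srsf9, 17.8% and 12.5% of Hnrnpll and 1.33% and 3.02% of Hnrnpl.

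**Figure D4:**
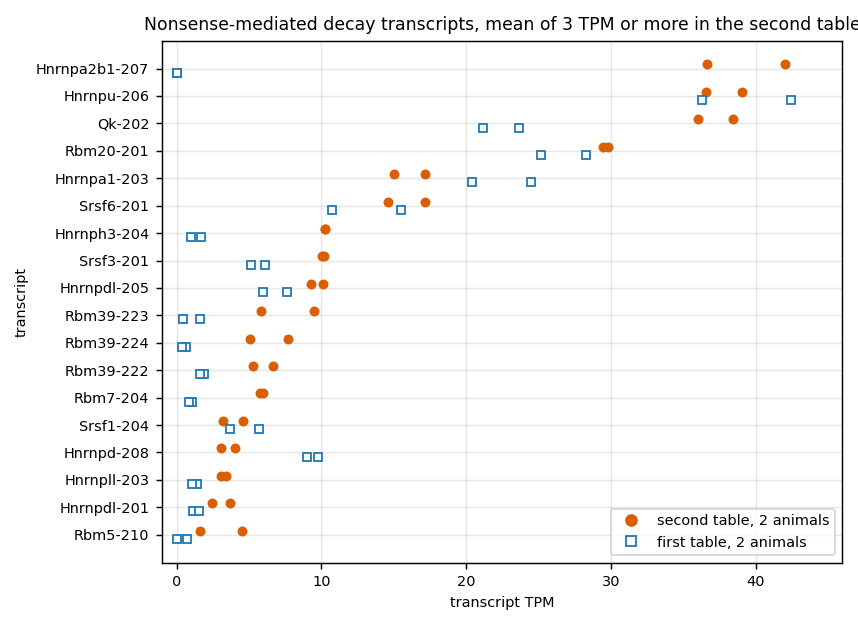
Transcript TPM of the 18 decay transcripts of the members that averaged 3 TPM or more in the second table (orange circles, 2 animals), with the first table beside them (open blue squares, 2 animals). Hnrnpu-206 and Rbm20-201 are close in both tables, while Hnrnpa2b1-207 is at 0 in the first, which places its decay RNA on another model that is not plotted.

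The 2 quantifications of the same reads were set side by side, since transcript levels within a gene are estimates. By gene, the second table gave a median of 1.22 times the TPM of the first for the members and 1.197 for 11187 protein-coding genes. Among members at 1 TPM or more in both tables, the largest ratios were 1.99 for Rbm8a, 1.85 for Rbm25, 1.82 for Hnrnpr, 1.78 for Rbm28 and 1.61 for Rbm48. For the shares, 41 of the 64 members were lower in the first table, whose median was 25.2% against 11.8% over all genes read. In it 6 members reached 50% in both animals, and 5 did so in both tables: Hnrnpu, Srsf3, Rbm8a, Rbm28 and Srsf6. Shares moved by more than 20 percentage points in 10 members. The counts of 41 and 10 were not made over all genes read, so they do not set the members apart from other genes. Rbm7 went from 75.8% to 15.6% as its decay transcript Rbm7-204 went from 69.3% or more of the gene to 15.5% and 9.40%, and Hnrnph3 went from 61.7% to 25.4%. Rbfox2 moved the other way, from 0.52% to 25.1%, and Mbnl2 from 18.8% to 39.2%.

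Single decay transcripts differed in how well the tables matched. Hnrnpu-206 stood at 36.6 and 39.1 TPM in the second table and 36.3 and 42.5 TPM in the first. Rbm20-201 stood at 29.8 and 29.5 TPM against 25.2 and 28.3 TPM, and Srsf6-201 at 14.6 and 17.2 TPM against 10.8 and 15.5 TPM. Srsf3-201 was lower in the first table, at 5.15 and 6.10 TPM, and Hnrnpa1-203 higher, at 20.4 and 24.5 TPM against 17.2 and 15.02 TPM. Hnrnpa2b1-207, the highest decay transcript of the second table at 36.7 and 42.02 TPM, was listed at 0 in the first, where Hnrnpa2b1-209, a decay transcript with the same stop exon, stood at 26.4 and 35.8 TPM (18.3% and 21.2% of the gene); in the second it was listed at 0. The tables thus placed the decay RNA of Hnrnpa2b1 on different models. Of the 30 decay transcripts at 1 TPM or more, 21 also averaged 1 TPM in the first table.

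**Figure D5:**
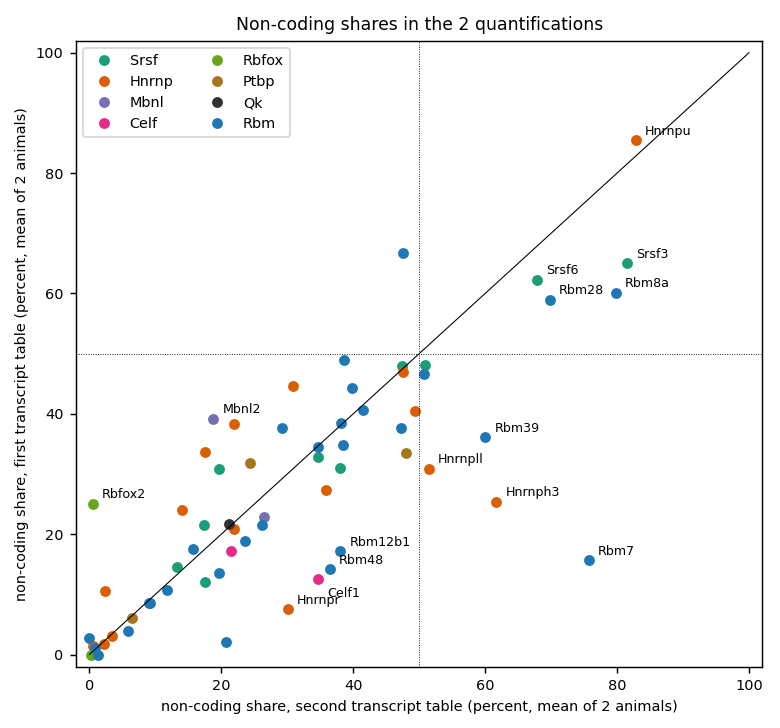
Non-coding share of each of the 64 members (percent, mean of 2 animals) in the second transcript table (x axis) and the first (y axis), coloured by family, with the line of equality and dotted lines at 50%. Named genes reach 50% in both tables or move by more than 20 percentage points; Rbm7 and Hnrnph3 lie far below the line and Rbfox2 and Mbnl2 above it.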

How the data were processed

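The authors deposited 3 tables per animal. Per the file headers, the gene table and the first transcript table give expected counts with TPM and a posterior spread (the layout of RSEM). The other deposited transcript table lists estimated counts beside TPM (that of kallisto). Versions, aligner and strand setting: not given in the sources used here. Symbols and transcript types come from the second table; positions and sequences come from GENCODE M21 (mm10). Genes were joined by gene identifier. Counts were rounded, scaled by TMM (edgeR 4.0.16) and tested gene by gene with an exact two-sided binomial test (scipy 1.17.1) in genes with 20 or more reads over both animals, with Benjamini-Hochberg adjustment, a threshold of 0.05 and 95% intervals; a prior count of 0.5 entered the ratios. The procedure was tested on simulated counts with set changes and counting error but no variation between animals. That test cannot show how it behaves where animals vary. With 1 library per animal, p-values measure counting error alone, and reads without molecular identifiers are not independent molecules. The rule for named genes took members of 50 TPM or more, the 3 highest of each family, the 8 highest and 4 lowest shares and the 5 largest ratios between quantifications; Rbm3, Rbm47 and a few other genes with low p-values were named after their values were seen. The members and lists were chosen with earlier results of these data known. Alternatives changed the scaling (including DESeq2 1.42.0), the read minimum, the table and the definition of the share. Ribosomal-depleted total RNA also holds unspliced RNA, whose part in the retained-intron shares was not tested.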

Additional observations from a re-analysis of the deposited data

How the results depend on the processing

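No member passed at 2-fold and an adjusted p of at most 0.05 under any of the 5 alternatives run. Of all genes tested, 0.503% to 1.49% then passed. The 16 members beyond counting error became 13 to 19 under 4 of them, when 6.76% to 15.1% of all genes passed. With libraries scaled by total counts they became 30, when 20.9% of all genes passed, and 11 of the 16 were among the 30. The members' summed level of 2411 TPM became 2976 TPM in the second transcript table and 5776 TPM with TPM rescaled over nuclear protein-coding genes, and 2209 to 2614 TPM in either animal alone.

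The median non-coding share of 27.8% became 25.2% with the TPM of the first transcript table, 14.6% as a share of estimated counts, 16.8% with decay transcripts counted as coding and 26.4% at 10 TPM or more, and 29.0% to 29.5% in either animal alone. With alternatives chosen after seeing the data it became 13.2% for transcripts of 1000 bases or more, 17.0% with expected counts of the first table and 38.1% in genes with 5 or more non-coding transcripts. It stood above the median of all genes read under each of these. The 10 members at 50% or more became 6 with the first table, 6 by estimated counts, 4 with decay counted as coding, 3 with expected counts of the first table and 4 of 25 in genes with 5 or more non-coding transcripts. The share over all genes was then 8.35%, 5.41%, 6.34%, 4.37% and 19.2%. In animal 1 alone 14 of the 64 members reached 50%, against 13.8% of all genes read. In animal 2 alone 12 of the 64 did, against 13%. With 2 replicates, no alternative that leaves an animal out has a test, and no paired analysis was possible because there is 1 group.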
